A study of Caenorhabditis elegans with 8 samples.

Results

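The genes described here are 54 chaperone genes of Caenorhabditis elegans, out of 25478 genes with a probe set of their own. They were chosen by name: every gene called hsp, dnj, cct or pfd with a number, together with daf-21 (the HSP90 gene, which the platform annotation lists as hsp-90), the co-chaperone gene sti-1 and the transcription factor gene hsf-1. The strongly inducible hsp-16 genes, hsp-12.6 and hsp-70 were left out, as were hsp-3, hsp-4, dnj-7, dnj-20 and dnj-27 of the endoplasmic reticulum. Each of the 54 had 1 probe set, so no choice between probe sets was needed. The rule went by name and used no difference between genotypes, but earlier results of these data were known when it was set. The 54 comprise 26 J-domain genes, 8 chaperonin subunit genes, 6 prefoldin subunit genes, 6 small heat shock genes, 3 HSP70 and HSP110 genes, 2 HSP90 genes, 1 HSP60 gene, sti-1 and hsf-1. Detection above background was not judged from these values. The mean level of each of the 54 lay above the arrays' median log2 signals of 5.20 to 5.30, with hsp-12.1 the dimmest.

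RNA came from synchronised populations fed Escherichia coli OP50 and collected on day 1 of adulthood, without treatment. The groups were 4 samples of wildtype (N2, the laboratory reference strain) and 4 of mir-71(n4115), a strain with a mutated gene for the microRNA mir-71, and nothing else distinguished them in the labels. Each sample was hybridised to 1 Affymetrix array, and values are log2 signals. The labels give no culture or animal for a sample, so the spread behind each p-value is that of these 8 samples and may be technical.

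Chaperones bind unfolded or unstable proteins and help them to fold, assemble or be handed on. HSP70 works in cycles of ATP hydrolysis that J-domain proteins start and nucleotide exchange factors such as HSP110 end, and the adaptor STI-1 links HSP70 to HSP90, which matures kinases and receptors. Prefoldin carries newly made actin and tubulin to the CCT chaperonin, a double ring that folds them, while hsp-6 and hsp-60 serve protein import and folding in mitochondria. HSF-1 is the transcription factor that drives heat shock genes and, in worms, development and lifespan.

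None of the 54 chaperone genes passed the test between mir-71(n4115) and wildtype worms when all 8 arrays were used (0 of 54; limma, Benjamini-Hochberg over 26192 probe sets, adjusted p from 0.0628 to 0.976), where 1.84% of all genes passed (0.616% higher and 1.22% lower). At an unadjusted p under 0.05, 5 were higher and 7 lower in the mutants, against 13.2% of all genes higher and 12.9% lower. The difference nearest to the threshold was that of dnj-24, at 1.20 ± 0.28 on the log2 scale (SE, n = 4 per group). The 54 split evenly, with 27 higher (51.8% of all genes were) and 27 lower and a median difference of -0.00, beside a median of 0.02 over all genes. For 15 of them the absolute difference was over 0.5, against 23.4% of all genes. Their median absolute difference was 0.31, and that of all genes 0.24.

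These counts depended on 1 array. Wildtype replicate 4 correlated at 0.986 to 0.993 with the mutant arrays over all tested probe sets and at 0.961 to 0.976 with wildtype replicates 1 to 3. Within the chaperone genes it stood nearer to the mutant mean than to the mean of wildtype replicates 1 to 3 for 44 of 54, against 72.2% of all genes. On the first principal component of the 54 genes, which held 89.8% of their variance, wildtype replicates 1 to 3 lay at -3.65 to -2.23, the mutants at 0.49 to 2.45 and wildtype replicate 4 at 2.74, beyond every mutant. On that of all tested probe sets (65.5% of the variance), wildtype replicate 4 lay at 39.95, within the mutant range of 22.67 to 49.84. Without wildtype replicate 4, 14 of the 54 rose and 14 fell (limma, adjusted p under 0.05), where 19.1% of all genes rose and 17.8% fell (36.9% in either direction). In all 28 of these, wildtype replicate 4 stood nearer to the mutants than to the other wildtype arrays, as it did in 87.9% of all genes that passed without it. The array was kept in its labelled group. What sets it apart was not tested.

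**Figure D1:**
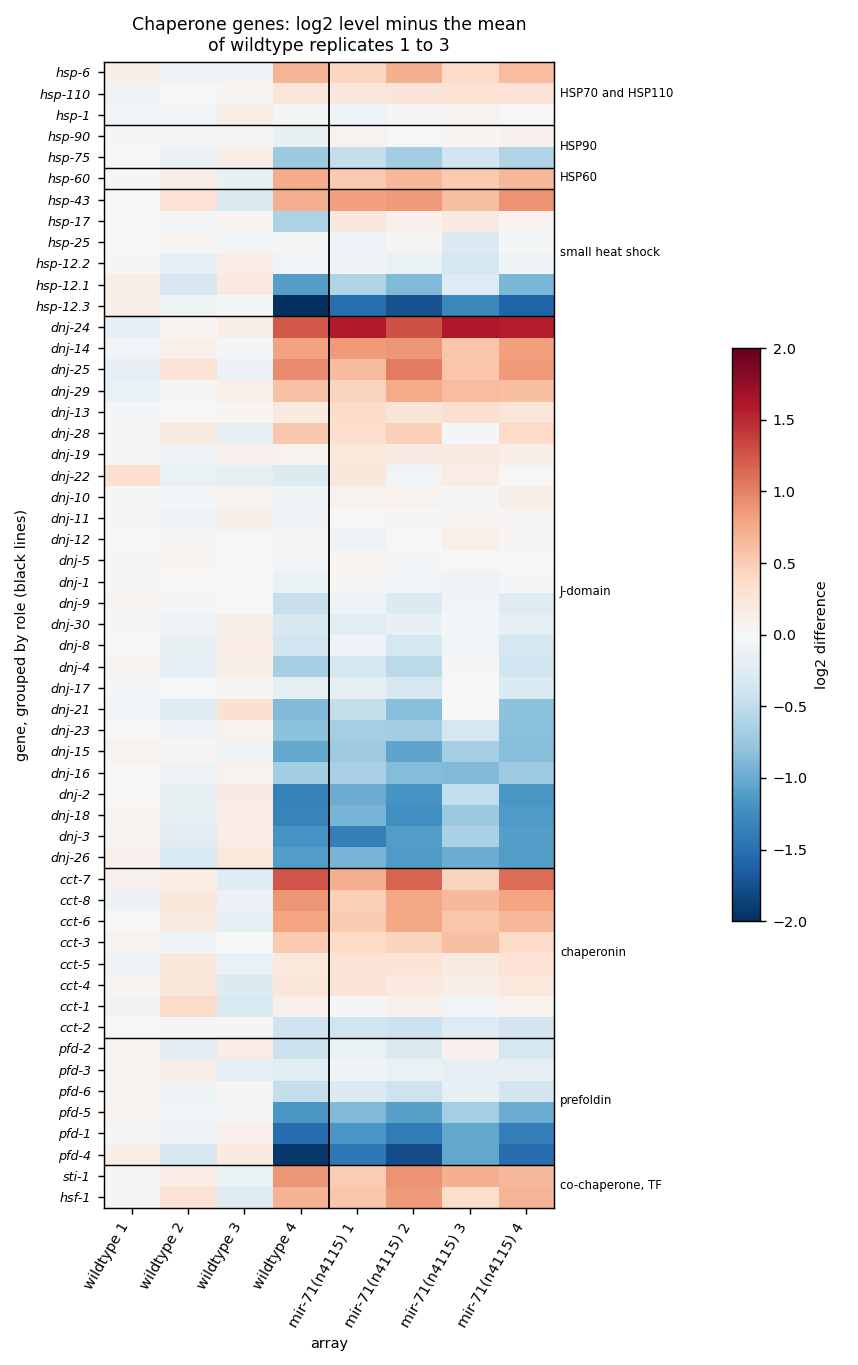
Heat map of the 54 chaperone genes (rows, grouped by role) on the 8 arrays (columns), coloured by log2 level minus the mean of wildtype replicates 1 to 3. The column of wildtype replicate 4 has the colours of the 4 mutant columns for most genes, among them hsp-12.3, pfd-1 and cct-7.

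Of the HSP70 class, the cytosolic hsp-1 differed by 0.01 between the genotypes, and the mitochondrial hsp-6 read higher on the mutant arrays and on wildtype replicate 4. The major cytosolic HSP70, hsp-1, read 11.73, 11.73, 11.91 and 11.76 on wildtype arrays 1 to 4 and 11.71, 11.81, 11.85 and 11.78 on mutant arrays 1 to 4. The 2 groups overlapped throughout, and the log2 difference of 0.01 ± 0.10 (SE; adjusted p = 0.972) had a 95% confidence interval of -0.23 to 0.24. Its nucleotide exchange partner hsp-110 read 11.02, 11.09, 11.14 and 11.33 in the wildtype and 11.31, 11.34, 11.36 and 11.38 in the mutants. Wildtype replicate 4 lay within the mutant range there, and the difference was 0.20 ± 0.11 (adjusted p = 0.263). For hsp-6, the mitochondrial HSP70, wildtype arrays gave 11.38, 11.18, 11.17 and 11.92, and mutant arrays 11.68, 11.96, 11.62 and 11.86. The 3 first wildtype arrays lay below all mutants and the fourth among them. Its difference was 0.37 ± 0.18 (adjusted p = 0.227), and 0.54 ± 0.12 without wildtype replicate 4 (adjusted p = 0.00958).

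The mitochondrial chaperonin gene hsp-60 followed the same pattern as hsp-6. Of the HSP90 pair, hsp-75 read lower in the mutants, while the difference of hsp-90 was smaller than its SE. hsp-60 read 10.76, 10.85, 10.58 and 11.47 in the wildtype and 11.25, 11.39, 11.25 and 11.39 in the mutants, so that its highest value of all came from wildtype replicate 4. The difference was 0.41 ± 0.19 (SE; adjusted p = 0.197) and, without that array, 0.59 ± 0.11 (adjusted p = 0.00373). With the length trend taken out these values were 0.21 (adjusted p = 0.301) and 0.31 (adjusted p = 0.0268). The cytosolic HSP90 gene, daf-21 or hsp-90, read 11.03, 11.03, 10.96 and 10.87 in the wildtype and 11.07, 11.02, 11.04 and 11.10 in the mutants. Here wildtype replicate 4 was the lowest array of all and not nearer to the mutants. The difference was 0.09 ± 0.10 (adjusted p = 0.597), with a 95% confidence interval of -0.14 to 0.31. hsp-75, the mitochondrial HSP90 related to mammalian TRAP1, read lower in the mutants, unlike hsp-6 and hsp-60. It read 10.59, 10.46, 10.71 and 9.85 in the wildtype against 10.10, 9.89, 10.20 and 9.98 in the mutants, a difference of -0.36 ± 0.19 (adjusted p = 0.248), and fell by 0.54 without wildtype replicate 4 (adjusted p = 0.00772).

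The regulator hsf-1 and the adaptor sti-1 were both higher in the mutants than in wildtype replicates 1 to 3. hsf-1 read 10.85, 11.18, 10.63 and 11.58 on the wildtype arrays and 11.44, 11.74, 11.24 and 11.56 on the mutant arrays. Wildtype replicate 4 was above 3 of the 4 mutants, and the difference was 0.44 ± 0.21 (SE; adjusted p = 0.218). sti-1 read 7.81, 7.98, 7.69 and 8.71 in the wildtype and 8.33, 8.73, 8.54 and 8.48 in the mutants, a difference of 0.47 ± 0.22 (adjusted p = 0.200). Without wildtype replicate 4 both passed, hsf-1 at 0.61 ± 0.17 (adjusted p = 0.0196) and sti-1 at 0.70 ± 0.13 (adjusted p = 0.00347). With the trend of each array with gene length also taken out, hsf-1 no longer passed (0.22, adjusted p = 0.218) and sti-1 did (0.93, adjusted p = 0.00113).

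**Figure D2:**
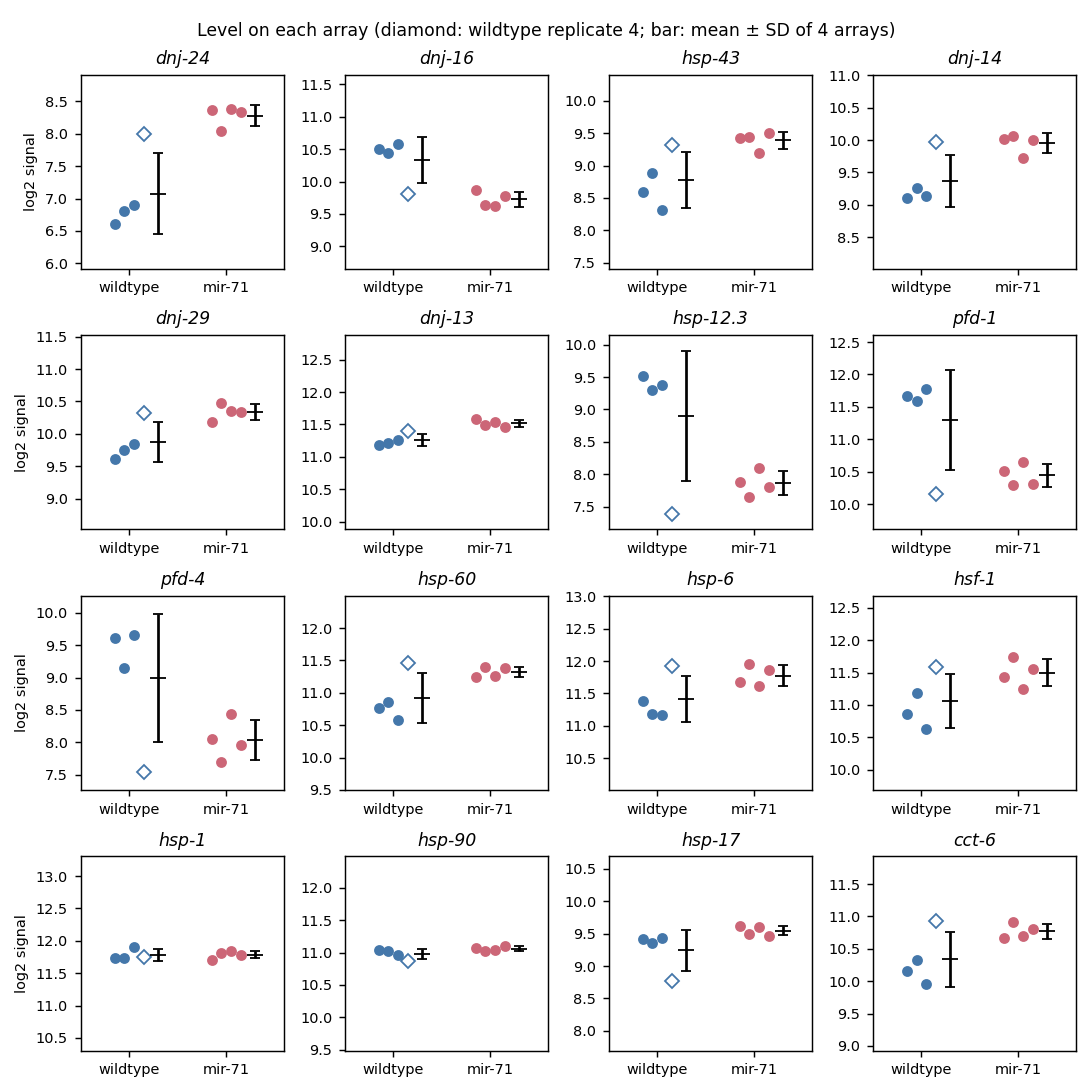
Log2 signal of 16 chaperone genes on each array, with wildtype replicates 1 to 3 and the 4 mutants as filled circles, wildtype replicate 4 as an open diamond and bars for the mean ± SD of 4 arrays. All panels span the same number of log2 units. The diamond lies at or beyond the mutant points for hsp-60, hsp-12.3, pfd-1 and cct-6, among overlapping points for hsp-1, and below all other points for hsp-17.

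J-domain proteins form the largest class, and 12 of 26 were higher and 14 lower in the mutants, with a median of -0.03 and differences from -0.77 to 1.20. None passed over all arrays, and 4 higher and 4 lower members had an unadjusted p under 0.05, against 13.2% and 12.9% of all genes. Without wildtype replicate 4, 5 rose and 7 fell, against 19.1% and 17.8% of all genes.

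dnj-24 had the largest difference of the 54. It read 6.61, 6.81, 6.90 and 7.99 in the wildtype and 8.36, 8.04, 8.38 and 8.34 in the mutants. All mutants lay above all wildtype arrays, and wildtype replicate 4 lay just under mutant replicate 2. The group means were 7.08 ± 0.62 and 8.28 ± 0.16 (SD, n = 4), a 2.31-fold difference (limma, adjusted p = 0.0628). Leaving out wildtype replicate 4, it rose by 1.51 ± 0.13 (SE; adjusted p = 1.30e-04), and with the length trend taken out over all arrays the difference was 1.12 (adjusted p = 0.0557).

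dnj-14, dnj-29 and dnj-25 were also higher in the mutants. dnj-14, the worm cysteine string protein of synaptic vesicles, read 9.11, 9.26, 9.13 and 9.97 in the wildtype and 10.02, 10.06, 9.72 and 9.99 in the mutants, a difference of 0.58 ± 0.20 (SE; adjusted p = 0.127). dnj-29, related to the endoplasmic reticulum translocation factor SEC63, read 9.61, 9.75, 9.84 and 10.32 against 10.18, 10.48, 10.35 and 10.34, a difference of 0.45 ± 0.16 (adjusted p = 0.138). For dnj-25, the worm auxilin that uncoats clathrin vesicles, the readings were 8.54, 9.004, 8.59 and 9.67 against 9.34, 9.73, 9.28 and 9.56, and the difference was 0.53 ± 0.25 (adjusted p = 0.205). In all 3, wildtype replicate 4 fell within the mutant range and the other wildtype arrays below it. All 3 rose without that array (0.78, 0.60 and 0.76, adjusted p from 0.00135 to 0.00609). Once the length trend was taken out as well, dnj-29 and dnj-25 no longer passed (0.21 and 0.22, adjusted p = 0.171 and 0.170), whereas dnj-14 did (0.91, adjusted p = 7.17e-04).

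dnj-13 and dnj-19 kept wildtype replicate 4 below the mutants. dnj-13, an HSP40 that works with HSP70 and HSP110 in dissolving protein aggregates, read 11.18, 11.22, 11.27 and 11.39 in the wildtype and 11.59, 11.48, 11.54 and 11.46 in the mutants. The groups did not overlap, though the difference was small, at 0.25 ± 0.10 (SE; adjusted p = 0.168). Without wildtype replicate 4 dnj-13 rose by 0.30 ± 0.10 (adjusted p = 0.0413), and by 0.47 with the length trend taken out as well (adjusted p = 0.0036). dnj-19 read 11.64, 11.58, 11.74 and 11.72 against 11.87, 11.82, 11.83 and 11.78, a difference of 0.15 ± 0.10 (adjusted p = 0.332), again without overlap. It did not pass without wildtype replicate 4 (0.17, adjusted p = 0.209), but did with the length trend taken out as well (0.33, adjusted p = 0.0187). In all, 4 of the 54 genes had their mutant arrays above all wildtype arrays (dnj-24, dnj-13, dnj-19 and hsp-17), where 6% of all genes did. None had them all below, against 5.01% of all genes. With wildtype replicate 4 left out the arrays separated for 17 upwards and 15 downwards, against 22.6% and 20.4% of all genes (43% in either direction).

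The lower J-domain genes with the lowest p were dnj-16, dnj-26, dnj-3, dnj-15, dnj-18 and dnj-23, and in each of them wildtype replicate 4 sat with the mutants. dnj-16 read 10.51, 10.45, 10.57 and 9.81 in the wildtype and 9.87, 9.63, 9.62 and 9.78 in the mutants, a difference of -0.61 ± 0.18 (SE; adjusted p = 0.101). dnj-26 read 9.87, 9.48, 9.995 and 8.67 against 8.85, 8.64, 8.79 and 8.66, a difference of -0.77 ± 0.26 (adjusted p = 0.126). dnj-3, one of the dimmer members, read 7.66, 7.39, 7.75 and 6.42 against 6.24, 6.49, 6.96 and 6.51 and differed by -0.76 ± 0.29 (adjusted p = 0.149). In dnj-16, dnj-26 and dnj-3 the first 3 wildtype arrays were above every mutant and the fourth inside the mutant range.

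dnj-18 read 7.87 in wildtype replicate 4, below all 4 mutants (8.29, 7.99, 8.47 and 8.07), against 9.26, 9.04 and 9.34 on the other wildtype arrays. Its difference was -0.67 ± 0.30 (SE; adjusted p = 0.196). dnj-15 read 10.15, 10.09, 9.99 and 9.06 in the wildtype and 9.35, 9.02, 9.40 and 9.23 in the mutants, a difference of -0.57 ± 0.24 (adjusted p = 0.171). dnj-23 read 10.07, 10.01, 10.15 and 9.26 against 9.41, 9.37, 9.74 and 9.24, and differed by -0.43 ± 0.21 (adjusted p = 0.217). The replicate 4 reading of dnj-23 stood between the 2 lowest mutants. Without that array dnj-2, dnj-3, dnj-15, dnj-16, dnj-18, dnj-23 and dnj-26 fell (dnj-3 at -1.06 was the furthest from 0), and with the length trend also taken out all 7 still fell, along with dnj-1 (-0.30, adjusted p = 0.0258) and dnj-9 (-0.44, adjusted p = 0.0129).

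The other J-domain genes had differences from -0.62 to 0.16. dnj-5 read 11.91 to 11.97 in the wildtype and 11.90 to 11.97 in the mutants, and its difference was 0.01 with a 95% confidence interval of -0.21 to 0.22. The class A HSP40 gene dnj-12 read 10.86 to 10.92 against 10.82 to 10.997 (0.02), and dnj-11, related to the ribosome-bound ZRF1, read 10.81 to 11.01 against 10.86 to 10.93 (0.03). dnj-10, the mitochondrial member related to TID1, differed by 0.07, dnj-22 by 0.15 and dnj-28 by 0.16. On the lower side were dnj-1 (-0.01), dnj-9 (-0.06), dnj-30 (-0.07), dnj-8 (-0.11), dnj-4 (-0.15), dnj-17 (-0.15), dnj-21 (-0.31), a homologue of the mitochondrial import motor subunit TIM14, and dnj-2 (-0.62). With dnj-19, these 15 genes had adjusted p from 0.244 to 0.971.

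Small heat shock genes also split, with 2 of 6 higher and 4 lower. hsp-43 read 8.59, 8.89, 8.31 and 9.32 in the wildtype and 9.42, 9.45, 9.20 and 9.50 in the mutants, a difference of 0.61 ± 0.21 (SE; adjusted p = 0.122). Without wildtype replicate 4 it rose by 0.79 ± 0.15 (adjusted p = 0.00388), and by 0.87 with the length trend taken out as well (adjusted p = 0.00241). hsp-12.3 had the lowest difference of the 54, reading 9.52, 9.30, 9.38 and 7.39 in the wildtype and 7.89, 7.65, 8.10 and 7.80 in the mutants. The lowest of these 8 values was that of wildtype replicate 4, which made the wildtype SD 1.01 around a mean of 8.90, and the difference was -1.04 ± 0.43 (adjusted p = 0.168). Without it hsp-12.3 fell by 1.54 ± 0.13 (adjusted p = 1.30e-04), from a wildtype range of 9.30 to 9.52.

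hsp-17, outside the naming rule and described after its values were seen, was 1 of the 10 genes in which wildtype replicate 4 was not nearer to the mutants. It read 9.41, 9.36, 9.44 and 8.76 in the wildtype and 9.62, 9.50, 9.60 and 9.47 in the mutants. All mutants were above all wildtype arrays, and wildtype replicate 4 was the lowest array, on the far side from the mutants. Its difference was 0.30 ± 0.16 (SE; adjusted p = 0.254), and 0.14 ± 0.10 without that array (adjusted p = 0.296). With the length trend taken out as well it rose by 0.41 (adjusted p = 0.00641). The muscle-associated hsp-25 read 11.40 to 11.47 against 11.16 to 11.45 (-0.09), hsp-12.2 read 9.53 to 9.83 against 9.34 to 9.62 (-0.14), and hsp-12.1, the dimmest of the 54, read 4.79 to 6.07 against 4.97 to 5.62 (-0.39), with adjusted p from 0.391 to 0.599. hsp-25 did not pass without wildtype replicate 4 (-0.10, adjusted p = 0.516), but did with the length trend taken out as well (-0.32, adjusted p = 0.0258). With wildtype replicate 4 left out hsp-12.1 fell by 0.66 (adjusted p = 0.0259), a call not kept with the length trend taken out as well (-0.38, adjusted p = 0.1001). Its mutant mean of 5.22 lay at the level of the array medians (5.20 to 5.30).

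Of 8 chaperonin subunit genes 6 read higher in the mutants (median 0.26), and 0 passed. cct-6 read 10.15, 10.32, 9.95 and 10.93 in the wildtype and 10.67, 10.92, 10.69 and 10.81 in the mutants, a difference of 0.43 ± 0.20 (SE; adjusted p = 0.206). cct-8 read 9.32, 9.66, 9.32 and 10.32 against 9.91, 10.22, 10.08 and 10.22 (0.45 ± 0.22, adjusted p = 0.224), and cct-3 read 8.90, 8.73, 8.83 and 9.34 against 9.21, 9.26, 9.43 and 9.21 (0.33 ± 0.15, adjusted p = 0.200). In all 3 the first 3 wildtype arrays were below every mutant and wildtype replicate 4 was within the mutant range (cct-3) or above it (cct-6 and cct-8).

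cct-2 had a difference of the opposite sign. It read 11.74, 11.70, 11.75 and 11.32 in the wildtype and 11.33, 11.30, 11.47 and 11.36 in the mutants, a difference of -0.26 ± 0.13 (SE; adjusted p = 0.230). cct-7 differed by 0.55, cct-5 by 0.20, cct-4 by 0.15 and cct-1 by -0.01, with adjusted p from 0.279 to 0.976. Without wildtype replicate 4, cct-3, cct-6, cct-7 and cct-8 rose (0.46 to 0.86, adjusted p from 0.00492 to 0.0103) and cct-2 fell by 0.36 (adjusted p = 0.0205), so that 3 of 8 subunits did not pass. With the length trend taken out over all arrays, 6 of 8 were again higher, since cct-5 turned lower (-0.09) and cct-1 higher (0.07). With wildtype replicate 4 left out too, cct-6, cct-7 and cct-8 rose (cct-8 by 0.35, adjusted p = 0.0381), while cct-3 (0.02, adjusted p = 0.907) and cct-2 (-0.24, adjusted p = 0.0560) did not pass.

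All 6 prefoldin subunit genes were lower in the mutants over all arrays (median -0.40), but with the length trend taken out pfd-2, pfd-3 and pfd-6 turned higher (0.07, 0.04 and 0.07). pfd-1 read 11.66, 11.59, 11.78 and 10.15 in the wildtype and 10.51, 10.29, 10.65 and 10.31 in the mutants, a difference of -0.86 ± 0.33 (SE; adjusted p = 0.153). pfd-4 read 9.61, 9.16, 9.65 and 7.54 against 8.05, 7.70, 8.44 and 7.95, a difference of -0.95 ± 0.43 (adjusted p = 0.195). For pfd-5 the values were 11.10, 10.99, 11.01 and 9.87 against 10.15, 9.95, 10.36 and 10.04 (-0.62 ± 0.26, adjusted p = 0.178). In pfd-1, pfd-4 and pfd-5 wildtype replicate 4 was the lowest of the 8 arrays, and the other wildtype arrays were above every mutant. pfd-6 (-0.18), pfd-3 (-0.08) and pfd-2 (-0.07) had adjusted p from 0.419 to 0.811. Without wildtype replicate 4, pfd-1, pfd-4 and pfd-5 fell, by 0.91 to 1.44, and pfd-6 differed by -0.30 (adjusted p = 0.0544). The 3 also fell with the length trend taken out as well (pfd-1 by 0.89, pfd-4 by 1.08 and pfd-5 by 0.56, adjusted p from 3.48e-04 to 0.00321).

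**Figure D3:**
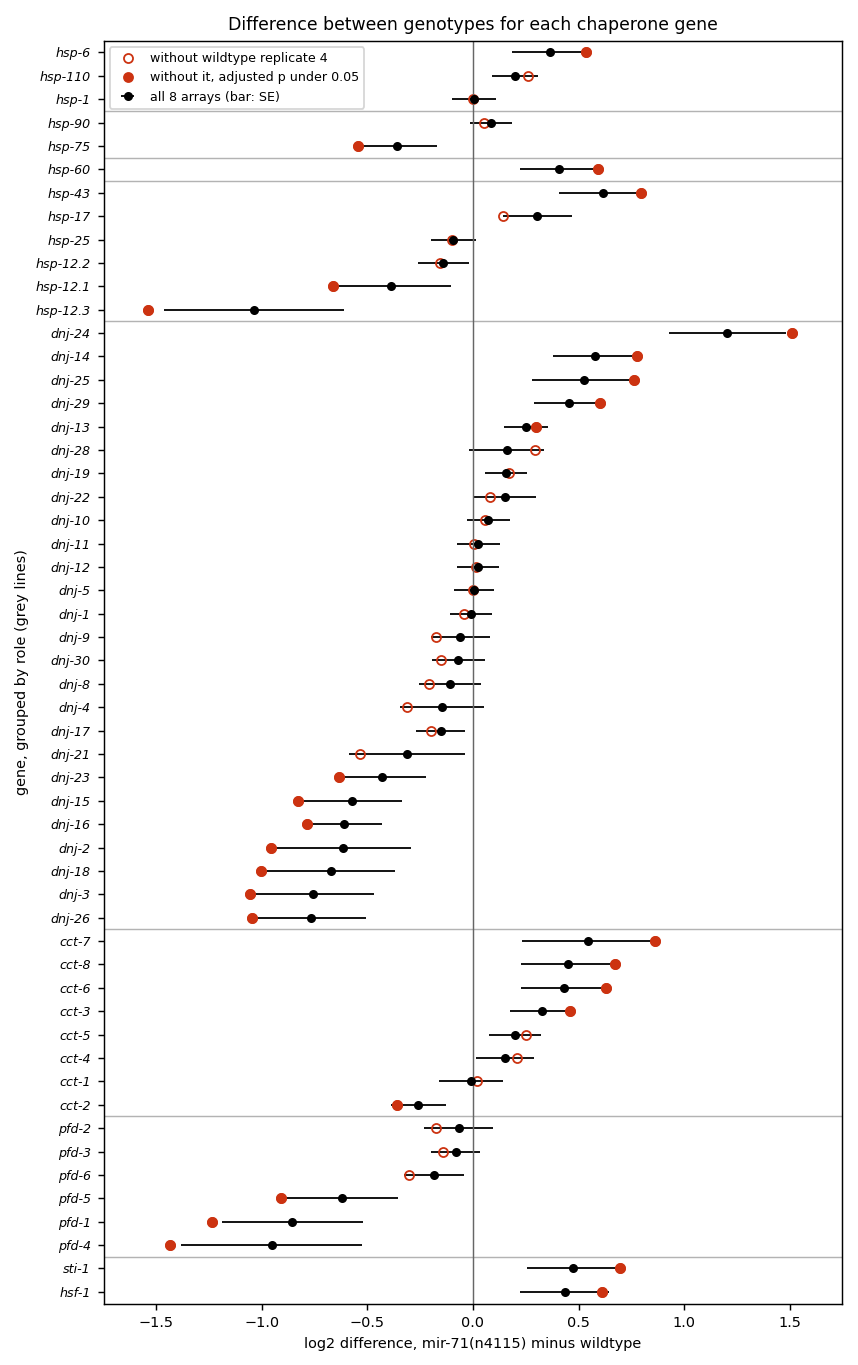
Log2 difference, mir-71(n4115) minus wildtype, of each chaperone gene, over all 8 arrays (black, with SE) and without wildtype replicate 4 (red, filled where the adjusted p was under 0.05). Leaving out that array shifted the differences of hsp-12.3, pfd-4 and pfd-1 by more than those of the other genes, and those of hsp-1, hsp-90 and dnj-5 hardly at all.

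Arranged by array rather than by gene, the class medians on wildtype replicate 4 had the signs they had on the mutants. Relative to wildtype replicates 1 to 3, the median prefoldin gene stood at -0.82 on wildtype replicate 4 and at -0.75 to -0.43 on the mutant arrays. The median chaperonin gene stood at 0.38 there and at 0.31 to 0.36 on the mutants, and hsp-60 at 0.74 and 0.52 to 0.67. For the J-domain class the median was -0.23 on wildtype replicate 4 and -0.12 to -0.02 on the mutants. The 10 genes in which wildtype replicate 4 was not nearer to the mutants were hsp-90, hsp-12.2, hsp-17, hsp-25, dnj-5, dnj-10, dnj-11, dnj-12, dnj-19 and dnj-22.

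The chaperone genes' differences ran with gene length, as those of all protein-coding genes did. Across the 54 genes Spearman's rho between annotated gene length and difference was 0.58, and across 18800 protein-coding genes 0.40 (genes within the same arrays are not independent replicates). Of 13 members in the shortest of 3 equal length classes 10 were lower (median -0.43, against -0.16 for all protein-coding genes of that class). Among 18 members in the longest class 12 were higher (median 0.20, against 0.17). Of the prefoldin genes pfd-1, pfd-4, pfd-5 and pfd-6 are in the short class, and hsf-1, dnj-25, dnj-29, hsp-60, cct-3, cct-5 and cct-8 are in the long class. Against this ran 3 short members that were higher (sti-1, hsp-17 and dnj-22). So did 6 long members that were lower (hsp-75, hsp-25, dnj-1, dnj-8, dnj-9 and dnj-30). After removing the length trend the rho over the 54 was 0.26 and over all protein-coding genes 0.01. Then 0 of 54 passed over all arrays, against 2.1% of the 18800 protein-coding genes (0.633% higher and 1.47% lower). Without wildtype replicate 4, 12 rose and 15 fell, against 19.9% and 21.5% of the protein-coding genes (41.4% in either direction).

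**Figure D4:**
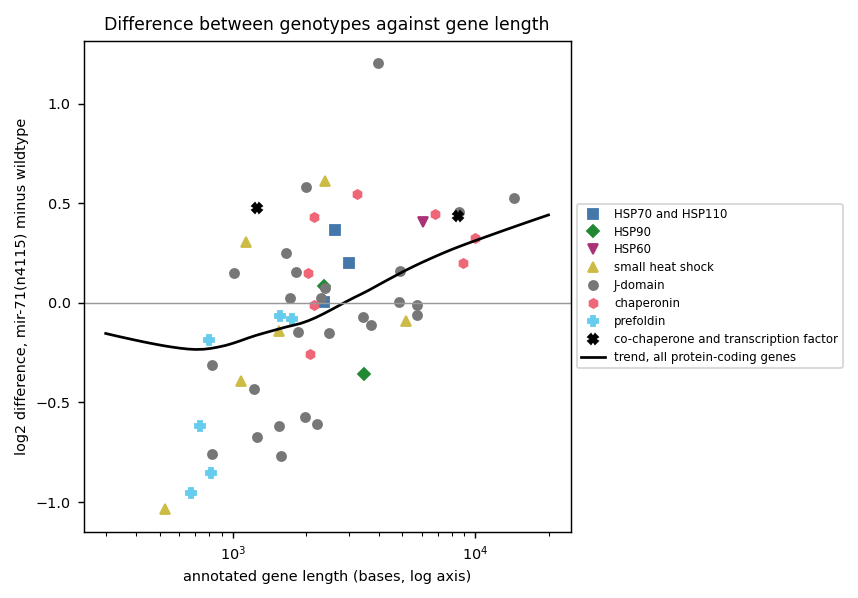
Log2 difference, mir-71(n4115) minus wildtype over all 8 arrays, against annotated gene length (log axis) for the 54 chaperone genes, with symbols by role and a line for the trend over all protein-coding genes. The genes pfd-1, pfd-4 and pfd-5 lie at the short, lower end, and hsf-1, dnj-25 and hsp-60 at the long, higher end.

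Some members lie close together on the chromosomes. On chromosome IV dnj-1, dnj-2 and pfd-4 follow each other with 2 protein-coding genes between neighbours in the WBcel235 annotation. Their differences were -0.01, -0.62 and -0.95. hsp-75 and pfd-5, on chromosome III with 5 protein-coding genes between them, differed by -0.36 and -0.62. The 54 genes were spread over all 6 chromosomes, with 12 on III and 3 on X (dnj-14, hsp-25 and hsp-43).

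Partners of the chaperones outside the 54 were also tested. Of 15 co-chaperones and HSF-1 regulators 0 passed over all arrays, against 1.84% of all genes. At an unadjusted p under 0.05 there were 6, against 26.1% of all genes. The 15 had a median of 0.03, with 8 higher and 7 lower. The largest difference was that of pph-5, the TPR-containing phosphatase that binds HSP90, which read 9.14, 9.30, 9.01 and 10.45 in the wildtype and 10.35, 10.42, 10.54 and 10.38 in the mutants (0.95 ± 0.29, SE; adjusted p = 0.105). bag-1, an HSP70 nucleotide exchange factor, read 11.69, 11.59, 11.80 and 10.11 against 10.60, 10.26, 10.51 and 10.32 (-0.87 ± 0.34, adjusted p = 0.155). hsb-1, which binds HSF-1 and restrains it, read 11.36, 11.21, 11.54 and 10.43 against 10.64, 10.36, 10.69 and 10.52 (-0.58 ± 0.23, adjusted p = 0.155). In these 3 genes wildtype replicate 4 again lay with the mutants or beyond them. Of the other proteins of the HSF-1 inhibitory complex, ddl-1 differed by -0.46 and ddl-2 by 0.63 (adjusted p = 0.186 and 0.165). Without wildtype replicate 4, 5 of the 15 rose and 4 fell, against 19.1% and 17.8% of all genes.

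The 10 genes of the mitochondrial stress response and its proteases had 0 passing over all arrays (median 0.11). At an unadjusted p under 0.05 there were 4, against 26.1% of all genes. With wildtype replicate 4 left out 4 rose and 2 fell, against 19.1% and 17.8% of all genes. clpp-1, the matrix protease subunit, read 10.71, 10.70, 10.39 and 9.56 in the wildtype and 9.59, 9.46, 9.41 and 9.39 in the mutants (-0.88 ± 0.24, SE; adjusted p = 0.0911), with wildtype replicate 4 inside the mutant range. The regulator ubl-5 differed by -1.04 (adjusted p = 0.104), atfs-1, the transcription factor that induces hsp-6 and hsp-60, by 0.87 (adjusted p = 0.272) and dve-1 by 0.63 (adjusted p = 0.125). Only ymel-1, an inner membrane protease, had its mutant arrays all above its wildtype arrays (0.34 ± 0.12, adjusted p = 0.131).

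Of the 11 genes with a probe set of their own that the choice by name left out, 9 were set beside the members (all but hsp-16.20 and hsp-16.21). All 9 read higher in the mutants (median 0.47) and hsp-16.2 alone passed over all arrays (2.01, adjusted p = 0.00667). With wildtype replicate 4 left out 7 of the 9 rose, against 19.1% of all genes. The hsp-16.2 wildtype replicate 4 value of 2.37 lay below wildtype arrays 1 to 3 (2.85 to 3.24), on the far side from the mutants (4.51 to 5.15), whereas in 44 of the 54 that array was nearer to the mutants. hsp-70 read 2.30 there, against 2.42 to 3.01 in the other wildtype arrays and 3.08 to 3.73 in the mutants (0.82 ± 0.20, SE; adjusted p = 0.0701). Both are dim, far below the array medians. So is hsp-16.41 (means of 2.11 in the wildtype and 2.86 in the mutants), and hsp-12.6 (4.07 and 4.39) also lay below them. The differences of these 4 are therefore uncertain.

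Marker genes of other tissues also differed between these arrays. Of 12 moulting and epidermis markers 11 were higher in the mutants (median 0.87), and the log2 of their summed signal was 11.16 to 11.48 in wildtype replicates 1 to 3, 12.31 in wildtype replicate 4 and 12.38 to 12.56 in the mutants. Body wall muscle markers (9 of 10 higher) stood at 13.73 to 13.77, 14.16 and 13.93 to 14.15, neuron markers (9 of 10 higher) at 12.82 to 12.92, 13.30 and 13.24 to 13.27, and oocyte and early embryo markers (15 of 16 higher) at 15.52 to 15.73, 15.96 and 15.77 to 15.96. Intestine markers (4 of 10 higher) stood at 14.55 to 14.63, 14.43 and 14.41 to 14.49. The brightest of them, vit-2, vit-5 and vit-6, weigh most in that sum and read lower in the mutants. Sperm markers (2 of 9 higher) differed in pattern, at 9.97 to 10.25, 9.99 and 8.61 to 9.21. None of these genes reads 0 on such a scale, and those with a mean below the array medians were 4 sperm and 2 moulting markers. Over all arrays 2 moulting and epidermis markers rose and 4 sperm markers fell (0.616% of all genes rose and 1.22% fell). None of the oocyte, muscle, intestine or neuron markers passed. With wildtype replicate 4 left out 10 of 12 moulting and epidermis, 7 of 10 muscle, 7 of 10 neuron, 6 of 16 oocyte and 3 of 10 intestine markers rose, while 6 of 9 sperm and 3 of 10 intestine markers fell. Of all genes 19.1% rose and 17.8% fell without that array. The listed sperm markers msp-10, msp-31, msp-45, msp-49, msp-55 and msp-77 and the oocyte marker mex-1 had no probe set of their own. The part of these tissues in the chaperone values was not tested, and in RNA of mixed tissues fewer cells of a type and less RNA per cell cannot be told apart.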

How the data were processed

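A single table of deposited log2 signals was used, holding 29317 probe sets on 8 arrays. The authors made it with Partek 6.6 and RMA, per the submitters' processing notes. Steps beyond that are not given in those notes. The log2 scale was read from the range of the values and the use of RMA. Such values cannot show a shift common to most genes, and the number of arrays limits the precision. No further normalisation was applied. GEO's platform annotation names a gene for 26192 probe sets, 25546 of them with 1 gene, 646 with several (never named) and 3125 rows with none. Symbols and gene lengths come from RefSeq (WBcel235) through the Entrez identifier, which matched all 54 members.

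Arrays grouped by the labels were compared with limma 3.58.1 (R 4.3.3; lmFit, then eBayes; no covariate). All 26192 probe sets entered the Benjamini-Hochberg adjustment, and a gene passed at an adjusted p under 0.05. Every difference is mutant minus wildtype. The fit and the length correction were tested on simulated data. For the latter, each array's lowess trend of deviations with gene length was subtracted over protein-coding genes. The members, lists and alternatives were chosen with earlier results of these data known. The naming rule took members past the threshold, then those with the lowest p up to 24, and hsp-1, daf-21, hsf-1, sti-1, hsp-60, hsp-6 and hsp-110. Other members and the partner genes were named after their values were seen. The alternatives are given in the closing section. Sequences were not used here.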

Additional observations from a re-analysis of the deposited data

Results flagged for a closer look

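For 11 of 108 groups of 4 arrays (54 genes in 2 genotypes), 1 array stood apart from the other 3 by more than the Dixon 95% critical value, which chance does in about 1 of 20 groups. The genes were read on the same arrays, so the groups are not independent and the count cannot be judged against that rate. In 9 of the 11 the array was wildtype replicate 4. It read 7.39 for hsp-12.3 (9.30 to 9.52 on the other wildtype arrays), 8.76 for hsp-17 (9.36 to 9.44), 9.06 for dnj-15 (9.99 to 10.15), 9.81 for dnj-16 (10.45 to 10.57) and 9.26 for dnj-23 (10.01 to 10.15). For dnj-9 it read 9.55 (9.97 to 10.05), for cct-2 11.32 (11.70 to 11.75), for pfd-1 10.15 (11.59 to 11.78) and for pfd-5 9.87 (10.99 to 11.10). All 9 readings were low. The remaining ones were wildtype replicate 3 for hsp-1, at 11.91 (11.73 to 11.76), and mutant replicate 2 for dnj-24, at 8.04 (8.34 to 8.38).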

How the results depend on the processing

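Of the 54 chaperone genes, 0 rose and 0 fell over all arrays (limma; 12 at an unadjusted p under 0.05). The same counts were found with quantile normalisation, median subtraction, the median over probe sets of a gene, eBayes with trend and robust, without the dimmest 40%, with the length trend taken out, and without any 1 array other than wildtype replicate 4. With each array left out in turn the risen and fallen counts each ranged from 0 to 14, and both 14s came from leaving out wildtype replicate 4. With array weights, which gave that array 0.17 and the others 0.67 to 2.49, 15 rose and 16 fell. Over all 26192 probe sets 5623 rose and 5199 fell with these weights. Without wildtype replicate 4 and with the length trend taken out 12 rose and 15 fell (19.9% and 21.5% of protein-coding genes). Of these members, 22 had the same direction among the 28 that passed without that array. Members with arrays separated by group went from 4 to 32 without it, a count added after seeing the data. With the replicate block 0 rose and 0 fell (21 at an unadjusted p under 0.05), and over all probe sets 114 rose and 266 fell in place of 169 and 342. Same-numbered samples' deviations correlated at -0.11 to 0.37, and 1 of 4 correlated best with its own number, so the numbers were not taken to pair the samples. Signs turned for 11 members, none of which passed over all arrays. With array weights dnj-22 was -0.0139 and cct-1 0.0078. With the length trend taken out dnj-5 was -0.136, cct-1 0.0716, cct-5 -0.0892, pfd-2 0.0701, pfd-3 0.0354 and pfd-6 0.068. Without wildtype replicate 4 as well, dnj-5 was -0.198, cct-1 0.124, cct-5 -0.153, pfd-2 0.0093, pfd-3 0.0182, pfd-6 0.0441 and hsp-12.2 0.0326. With 1 array left out, hsp-1 ranged from -0.0143 to 0.0492, dnj-1 from -0.0415 to 0.0116, dnj-12 from -0.0069 to 0.0516, dnj-5 from -0.0046 to 0.0188, cct-1 from -0.1197 to 0.1084 and pfd-2 from -0.1757 to 0.0205. The cause of these turns was not tested.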
